A study of Mus musculus with 4 samples.

Results

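The genes described here are 10 markers of T cells and natural killer (NK) cells, measured in the liver of young mice that carry a mutant Wrn protein. They are the surface genes Thy1, Cd3d, Cd3e, Cd3g, Cd4 and Cd8a and the genes of cytotoxic cells Nkg7, Gzma, Gzmb and Prf1. They were chosen by name, as lymphocyte surface and cytotoxic genes, and found through the RefSeq accession of each probe: 14 of 41174 probes belonged to them, and all 10 genes were among the 31077 genes or accessions that were tested. Both groups were C57Bl/6 males of 3 months with mutant Wrn, a RecQ helicase whose loss causes Werner syndrome in humans. The 4 treated mice had received 0.4% vitamin C in their drinking water since weaning, and the 4 control mice had received none. RNA of 1 treated liver (Cy3) and 1 untreated liver (Cy5) shared each of 4 Agilent arrays with 2 colours, which the labels call biological replicates 1 to 4. The labels do not say which Wrn allele the mice carried, and since all 8 livers carried it, no value below is an effect of the mutation. The question of the design is what vitamin C changed in these livers.

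T cells recognise peptides on other cells through the T cell receptor, which signals through the CD3 chains, and the co-receptors CD4 and CD8 bind the molecules that present the peptide. Cytotoxic T cells and NK cells kill by releasing granules: perforin opens the membrane of the target cell and granzymes, which are proteases, enter and trigger its death. The liver holds many resident lymphocytes in its sinusoids, NK cells and innate-like lymphocytes prominent among them, beside the hepatocytes that make most of its RNA. In RNA of whole liver, more cells of a type and more RNA per cell cannot be told apart.

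In treated livers, Thy1, Nkg7 and Cd3d had ratios above 0 on all 4 arrays, with mean folds of 1.43, 1.52 and 1.35. Cd3e and Cd8a had means below 0, at folds of 0.843 and 0.874, with replicate 2 at or above 0. The other 5 genes had mean folds between 0.928 and 1.09. No member passed the threshold of limma's test (adjusted p under 0.05 over all genes), and neither did any other gene: 0 of 31077 genes passed, or 0%. At an unadjusted p under 0.05, 3 members were higher and 2 lower, beside 11.1% and 16.5% of all genes tested, 27.7% in either direction. A ratio above 0 on all 4 arrays was found for 3 members and for 14.9% of all genes, and a ratio below 0 on all 4 for 0 members and 16.1% of genes; together, 30.9% of all genes had 1 sign on all 4 arrays. The members' median of mean log2 ratios was 0.068, that of all genes -0.015. On replicates 1 to 4 the members' median was 0.029, 0.11, 0.12 and 0.092.

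Several facts of the arrays touch every value. The dyes ran the same way on all 4 arrays, so a dye effect of a probe and an effect of the treatment cannot be told apart, and the authors' deposited log2 table has the opposite sign (r of -0.980 to -0.950 with the ratios here, across probes). Ratios are given as log2 of vitamin C over untreated, as the dye labels define it. The median spot signal was 379.5 to 530 in Cy3 and 813 to 962 in Cy5, against 62 to 67 and 66 to 80 on negative control spots. Across genes, the ratios of replicates 1, 3 and 4 correlated with each other at r = 0.60 to 0.78, and those of replicate 2 with them at -0.18 to 0.020. Hepatocyte markers bore out the labelled tissue by their signal. The 6 that matched a probe had log2 intensities of 15.6 to 18.0, with Alb the highest. The 95% quantile of all genes was 14.1. All 14 member probes were well above background in both channels on all 4 arrays. A signal above background does not by itself identify the transcript. The looser filter used for testing asked for either channel on 3 or more arrays. It was passed by 1005 of 1026 genes of smell, pheromone and taste receptors, not known as liver genes, at a median log2 intensity of 10.1. Their share under the stricter flag was not counted. The members had log2 intensities of 7.38 to 9.33, and 13.6 for Cd3e; probes differ in how well they bind, so these values do not order the genes.

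Promoter stretches of the 3 CD3 genes, which are neighbours on chromosome 9, and of Nkg7 are shown because these genes carry the contrast among the members. Cd3d and Nkg7 lay above 0 on every array, Cd3e below it on 3. Of the 10 members, 8 had an entry in RefSeq's table for GRCm38.p6; Thy1 and Cd4 had none. Each line gives the 250 bases before the start used there, 5′ to 3′ on the gene's strand. For Cd3d and Cd3e that start lies inside the annotated gene, which begins at 44981769 and at 45009663. The ends of these windows therefore overlap the gene. Capitals mark matches to 4 short motifs, searched on both strands, and no match overlaps another. The motif of ETS factors was searched as AGGAAG. The motif of RUNX factors was searched as TGTGGT. For GATA factors the letters were AGATAA. For T-box factors they were TCACAC.
Nkg7 (chr7:43436888-43437137, plus strand): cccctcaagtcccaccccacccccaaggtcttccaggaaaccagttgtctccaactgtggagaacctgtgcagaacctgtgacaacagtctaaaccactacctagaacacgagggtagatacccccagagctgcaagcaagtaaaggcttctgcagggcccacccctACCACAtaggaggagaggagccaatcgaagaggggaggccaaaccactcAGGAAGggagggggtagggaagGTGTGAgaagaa
Cd3d (chr9:44981536-44981785, plus strand): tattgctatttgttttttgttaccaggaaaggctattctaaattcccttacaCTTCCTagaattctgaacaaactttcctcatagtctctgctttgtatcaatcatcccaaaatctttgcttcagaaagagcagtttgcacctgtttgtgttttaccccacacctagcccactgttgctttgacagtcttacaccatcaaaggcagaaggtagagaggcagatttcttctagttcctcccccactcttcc
Cd3e (chr9:45009612-45009861, minus strand): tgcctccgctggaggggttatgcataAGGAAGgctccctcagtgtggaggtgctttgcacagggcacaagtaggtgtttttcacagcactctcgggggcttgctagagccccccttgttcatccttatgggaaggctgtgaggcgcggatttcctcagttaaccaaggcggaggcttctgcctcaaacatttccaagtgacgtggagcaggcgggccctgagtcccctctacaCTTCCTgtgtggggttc
Cd3g (chr9:44980432-44980681, minus strand): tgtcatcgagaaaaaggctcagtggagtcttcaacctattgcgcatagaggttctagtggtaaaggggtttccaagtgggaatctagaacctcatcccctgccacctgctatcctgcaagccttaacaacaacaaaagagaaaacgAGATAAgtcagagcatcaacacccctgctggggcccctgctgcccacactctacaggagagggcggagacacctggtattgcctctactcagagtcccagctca

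The window of Nkg7 held 1 match each of the ETS, RUNX and T-box letters. That of Cd3d held 1 ETS match, that of Cd3e 2, and that of Cd3g 1 GATA match and none of the others. Among the windows not shown, Gzmb held 2 RUNX matches and 1 T-box match, and Prf1 held 2 ETS matches and 1 RUNX match. Gzma held 1 RUNX match and Cd8a no match. A link between matches and ratios was not tested. The Cd3e match that begins 17 bases before the window's end lies in the overlap with the gene. Of the 32851 promoter windows of this length in the table, 29.5% held the ETS letters, 14% the RUNX, 9.99% the GATA and 12.3% the T-box letters. A match is a run of letters and not a measured binding site.

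Thy1 encodes a small surface glycoprotein of mouse T cells, which some fibroblasts and neurons also carry. Its brightest probe had spot signals of 579.5, 427, 525.5 and 736 in the treated livers of replicates 1 to 4. In the untreated livers the signals were 741.5, 606, 887.5 and 764, before the arrays were corrected for the brighter Cy5 channel. After correction the log2 ratios were 0.29, 0.42, 0.61 and 0.74. All 4 were above 0, with replicate 4 the highest, and the mean was 0.52 ± 0.20 (SD, n = 4), which did not pass (adjusted p = 0.144, limma; 95% interval of the fold 1.24 to 1.65). Among all 31077 genes, this was rank 165 by p. The second Thy1 probe did not repeat it: it had -0.21, -0.23, -0.072 and 0.20, a mean of -0.078 ± 0.20, at signals of 119.5 to 151 in Cy3 and at most 246.5 in Cy5. Replicate 4 was again the highest, but 3 of 4 arrays lay below 0. The mean of both probes was 0.22.

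**Figure D1:**
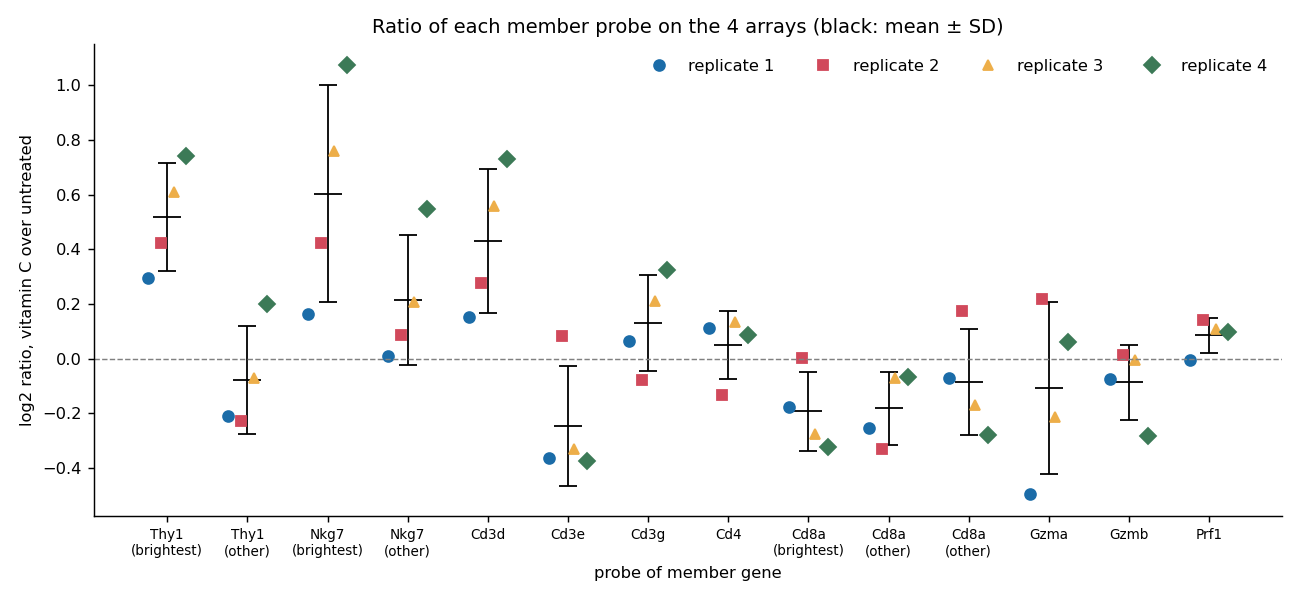
Log2 ratio of vitamin C over untreated (y axis) for each of the 14 probes of the 10 genes (x axis); coloured symbols are the 4 arrays and black bars the mean ± SD. The brightest probes of Thy1, Nkg7 and Cd3d have all 4 arrays above 0, and replicate 2 stands above the other arrays for Cd3e.

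The CD3 genes encode the delta, epsilon and gamma chains that carry the signal of the T cell receptor into the cell. Cd3d had spot signals of 358, 292.5, 361.5 and 471.5 in treated livers and 495, 425, 596.5 and 477.5 in untreated livers of replicates 1 to 4. Its log2 ratios were 0.15, 0.28, 0.56 and 0.73, all above 0, with a mean of 0.43 ± 0.26 (SD, n = 4; adjusted p = 0.144, limma). Cd3g, the gamma chain, had log2 ratios of 0.065, -0.080, 0.21 and 0.32, so that replicate 2 lay below 0, and its mean was 0.13 ± 0.18 (adjusted p = 0.298). Both genes had their highest ratio on replicate 4.

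Cd3e, the epsilon chain, differed from both. Its probe had spot signals of 8993, 8122, 6645 and 10531 in treated livers. In untreated livers they were 17716, 16394.5, 21313.3 and 23375.2. The log2 ratios were -0.36, 0.081, -0.33 and -0.37: replicates 1, 3 and 4 were below 0 and close together, and replicate 2 was above it. The mean was -0.25 ± 0.22 (SD, n = 4; adjusted p = 0.165, limma). The chains form one complex with the receptor, yet the ratios of Cd3e and Cd3d had opposite signs on replicates 1, 3 and 4; the difference between the genes was not tested. Only 1 probe each stood for Cd3d, Cd3e and Cd3g, so no second probe could be set beside these values.

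**Figure D2:**
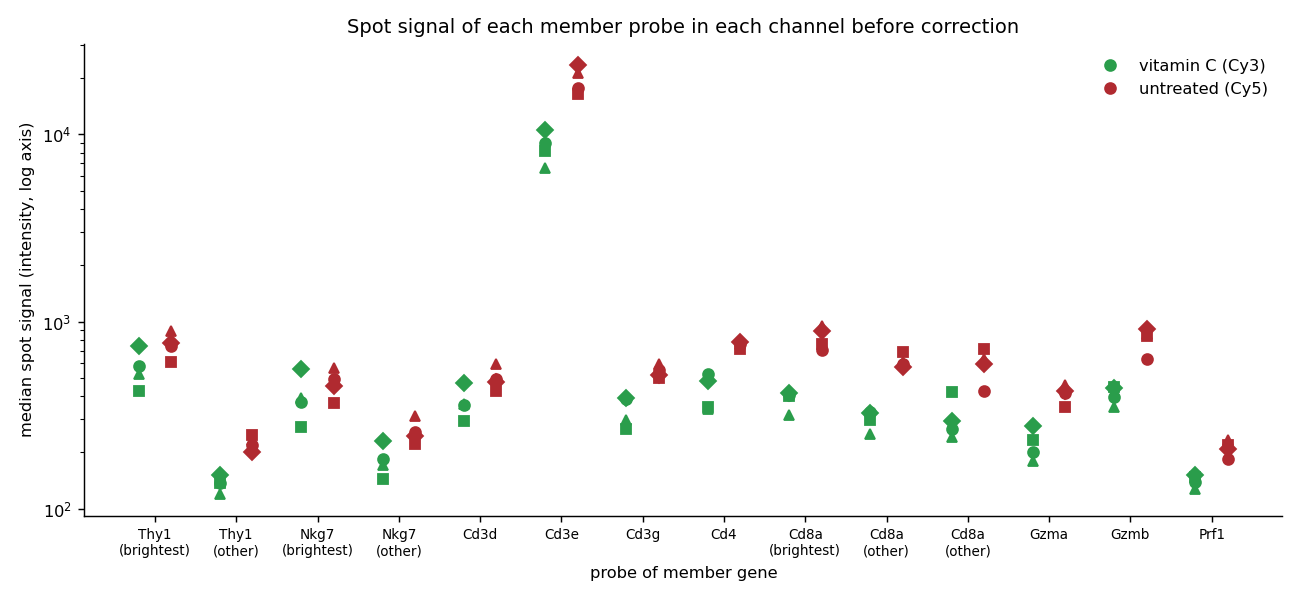
Median spot signal of each member probe (y axis, log scale, before background and dye correction) in treated livers (green, Cy3) and untreated livers (red, Cy5); circles, squares, triangles and diamonds are replicates 1 to 4. Signals lie between 119.5 and 941.6 for every probe but that of Cd3e, which lies between 6645 and 23375.2, and Cy5 is the brighter channel on nearly all spots before correction.

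Cd4 marks helper T cells and, in liver, part of the innate-like T cells. Its probe was printed as 10 spots on each array, of which 9, 10, 9 and 9 were kept on replicates 1 to 4 after spots flagged as outliers were left out. The log2 ratios were 0.11, -0.13, 0.13 and 0.087, with a mean of 0.050 ± 0.12 (SD, n = 4; adjusted p = 0.608, limma; 95% interval of the fold 0.932 to 1.15). All 10 spots of replicate 2 lay below 0, from -0.24 to -0.021, while all kept spots of replicates 1 and 3 and 8 of 9 on replicate 4 lay above it. The SD among single spots of 1 array was 0.059 to 0.086, which is technical spread alone. The SD of 0.12 between arrays is of means over the kept spots, so it is not on the same scale. It holds differences of arrays and of livers together.

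Cd8a encodes the alpha chain of the CD8 co-receptor of cytotoxic T cells. Its brightest probe, also of 10 spots, had log2 ratios of -0.18, 0.0012, -0.28 and -0.32. All 10 spots lay below 0 on each of replicates 1, 3 and 4, and 4 of 10 lay above 0 on replicate 2. The mean was -0.19 ± 0.14 (SD, n = 4; adjusted p = 0.157, limma), with an SD of 0.046 to 0.069 among the spots of an array. Of the other 2 probes, 1 carries the same accession and had -0.26, -0.33, -0.072 and -0.068, a mean of -0.18 ± 0.13. It lay below 0 on every array, with replicate 2 the lowest. The remaining probe, for a second transcript, had -0.070, 0.17, -0.17 and -0.28, a mean of -0.086 ± 0.19. The 3 probes thus had means of one sign but disagreed on replicate 2, the highest array of 2 probes and the lowest of the other.

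Nkg7 encodes a membrane protein of cytotoxic granules in NK cells and killer T cells, and had the largest mean of the members. Its brightest probe had spot signals of 370, 274.5, 390 and 561 in treated livers of replicates 1 to 4. In untreated livers they were 495, 366.5, 566.5 and 454, so on replicate 4 the treated channel was the brighter even before correction. The log2 ratios were 0.16, 0.42, 0.76 and 1.07, with a mean of 0.60 ± 0.40 (SD, n = 4; adjusted p = 0.144, limma; 95% interval of the fold 1.18 to 1.96). The second Nkg7 probe had 0.011, 0.087, 0.21 and 0.55, a mean of 0.21 ± 0.24. Both probes were above 0 on all 4 arrays, lowest on replicate 1 and highest on replicate 4. By size of the mean, the brightest probe ranked 220 of the 31077 genes.

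The granule proteins had no shared direction. Gzma, a granzyme with trypsin-like cleavage, had log2 ratios of -0.50, 0.22, -0.22 and 0.062, with 2 arrays on each side of 0, and a mean of -0.11 ± 0.31 (adjusted p = 0.574, limma), or 0.021 without replicate 1. Gzmb, the granzyme that cleaves after aspartate and activates caspases, had -0.074, 0.014, -0.0057 and -0.28. Its mean was -0.088 ± 0.14 (adjusted p = 0.396), and 3 of 4 arrays lay below 0. Prf1, which encodes perforin, had -0.0061, 0.14, 0.11 and 0.098, a mean of 0.085 ± 0.064 (adjusted p = 0.282) and -0.012 with Agilent's processed signals. Its spot signals were 127.5 to 151.5 in Cy3 and 183.5 to 232 in Cy5. The 95% intervals of the fold reached from 0.753 to 1.14 for Gzma, 0.842 to 1.05 for Gzmb and 0.977 to 1.15 for Prf1.

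Other genes of these cells were taken from 3 lists, and 0 of their members passed over all genes (limma). The list of the T cell receptor, its co-receptors and T cell signalling had 26 tested genes and a median of -0.027. In it, 2 genes were higher and 4 lower at an unadjusted p under 0.05, beside 11.1% and 16.5% of all genes. The smallest p above 0 were those of Skap1, an adaptor of T cell adhesion (0.42 ± 0.23, SD, n = 4), Ccr7, a homing receptor (0.14 ± 0.056), and Lck, the kinase that phosphorylates the CD3 chains (0.20 ± 0.20). Those below 0 were Foxp3, the factor of regulatory T cells (-0.18 ± 0.049), Cd6, a surface receptor (-0.58 ± 0.58), and Gata3, a lineage factor (-0.13 ± 0.070). Adjusted p for these 6 genes lay between 0.144 and 0.183 (limma). Some of these values depended on the processing. Foxp3 was at -0.0075 without loess, and Foxp3 and Gata3 were at -0.071 and -0.030 with Agilent's processed signals, where Skap1, Lck and Ccr7 were at 0.73, 0.36 and 0.35. Cd6 was at -0.17 with the mean of its probes. Skap1 and Cd6 passed over all genes without loess, with array weights and without replicate 2, at an adjusted p of 0.00976 to 0.0437 (limma). Ccr7 passed without loess and Foxp3 with array weights, at an adjusted p of 0.0279 and 0.0217 (limma). Of all 31077 genes, 9632 passed without loess, 10856 with array weights and 8764 without replicate 2. Cd8b1, the partner of Cd8a, was not among the genes matched here.

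Of 21 tested NK cell genes, 5 were higher and 4 lower at an unadjusted p under 0.05, and the median was 0.011. Of all genes tested, 11.1% were higher and 16.5% lower at that level. Above 0 with the smallest p were Klrk1, which encodes the activating receptor NKG2D (0.19 ± 0.035, SD, n = 4), its adaptor gene Hcst (0.44 ± 0.29) and the kinase gene Txk (0.33 ± 0.20). Below 0 were Cd160 (-0.33 ± 0.24), Cd226 (-0.36 ± 0.32) and Klrc1 (-0.12 ± 0.049), all receptor genes. Klrk1 and Txk were at 0.73 and 0.62 without loess and at 0.33 and 0.74 with Agilent's processed signals, with which Klrc1 was at -0.031. Cd226 was at -0.11 with the mean of its probes. Of 22 cytotoxic granule and effector genes, 5 were higher and 2 lower, and the median was -0.024. The chemokine gene Ccl5 had the largest mean of that list, 0.71 ± 0.56, with ratios of 0.22, 0.26, 1.01 and 1.35 on replicates 1 to 4. Cst7 (0.33 ± 0.19) and Ctsc (0.34 ± 0.26), an inhibitor of cathepsins and the cathepsin that activates granzymes, were also above 0 on every array. Gzmc (-0.37 ± 0.22) and Ccl4 (-0.12 ± 0.083) were below 0 on every array, and Ctsw (-0.40 ± 0.41) on 3. Cst7 was at 0.86 without loess and 0.63 with Agilent's processed signals. Ctsc was at 0.22 and Ccl4 at 0.0050 without loess, and Ccl4 at -0.037 with Agilent's signals. Klrk1 and Cst7 had log2 intensities of 6.55 and 6.59, below the 5% quantile of all genes, 6.76. Over the alternatives of processing, the medians of the 3 lists stayed between -0.044 and 0.078, on both sides of 0 for the NK cell and cytotoxic lists. Adjusted p for these 12 genes lay between 0.144 and 0.199 (limma). Klrk1, Hcst, Txk, Cd160, Cd226, Cst7, Gzmc and Ctsw passed over all genes without loess, with array weights and without replicate 2. Their adjusted p in these fits was 0.00976 to 0.0494 (limma). Ccl5 passed with array weights and without replicate 2, at an adjusted p of 0.0207 and 0.0414 (limma). Of all 31077 genes, 9632 passed without loess, 10856 with array weights and 8764 without replicate 2.

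**Figure D3:**
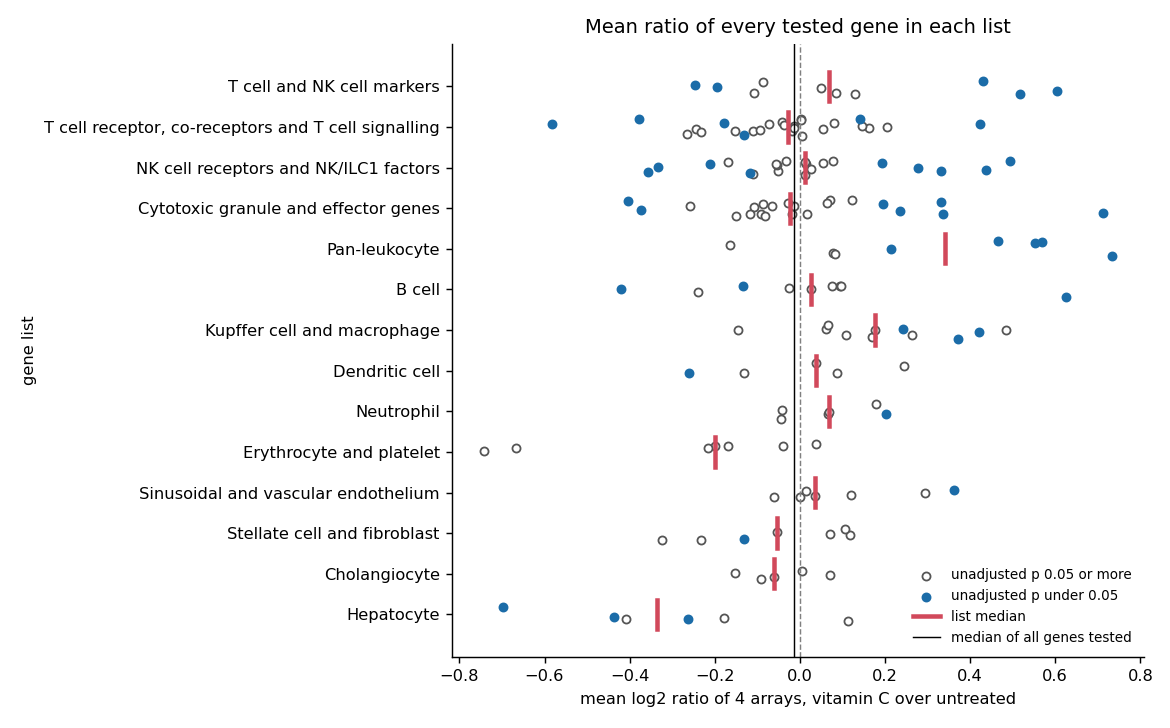
Mean log2 ratio of 4 arrays (x axis) for every tested gene of each list (y axis); filled points had an unadjusted p under 0.05, red bars are list medians and the black line is the median of all genes tested, -0.015. The T cell, NK cell and cytotoxic lists have medians between -0.027 and 0.011 with genes on both sides, while the pan-leukocyte median is 0.34.

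Markers of other cell types in the same RNA are given beside these values; 0 of them passed over all genes (limma). Pan-leukocyte genes had a median of 0.34, with array medians of -0.030, 0.35, 0.37 and 0.62. Of the 8, 5 were higher and 0 lower at an unadjusted p under 0.05, beside 11.1% and 16.5% of all genes. The 2 brightest pan-leukocyte genes were Cd52 (0.55 ± 0.43, SD, n = 4) and Cytip (-0.16 ± 0.14). Kupffer cell and macrophage genes had a median of 0.18 (array medians -0.29, 0.28, 0.086 and 0.49), with Cd5l at 0.26 ± 0.50 and Clec4f at 0.11 ± 0.27. Neutrophil genes had a median of 0.067, dendritic cell genes 0.037, endothelial genes 0.036, stellate cell and fibroblast genes -0.053 and bile duct genes -0.061. Of 9 B cell genes, 5 had means above 0 and 4 below, from -0.42 to 0.62. The B cell gene Cr2 was at -0.13, S100a9 and Mpo at 0.065 and -0.045, Xcr1 and Flt3 at -0.26 and 0.087, Clec4g and Stab2 at 0.12 and -0.060, Dcn and Reln at 0.12 and -0.053, and Spp1 and Sox9 at -0.092 and -0.061. Markers of red cells and platelets had a median of -0.20, with the globin genes Hba-a1 and Hbb-bt at -0.74 ± 0.94 and -0.67 ± 1.03, below 0 on replicates 2, 3 and 4. Hepatocyte markers had a median of -0.34, with Alb at -0.70 ± 0.25 and Cyp2e1 at -0.18 ± 0.57. Of the 6, 3 were lower and 0 higher at an unadjusted p under 0.05, beside 16.5% and 11.1% of all genes. All 6 had log2 intensities of at least 15.6, above the 95% quantile of all genes, 14.1. The part of these other cells, of blood left in the organ or of the hepatocyte share in the members' ratios was not tested.

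Among the members, 3 shared one pattern over the 4 arrays and 3 another, while Cd3g, Cd4, Gzma and Prf1 had neither; both patterns were described after the values had been seen. Thy1, Nkg7 and Cd3d were lowest on replicate 1 and highest on replicate 4. The same held for 6.93% of all genes tested, 2.39% of the smell, pheromone and taste receptor genes, 5 of 8 pan-leukocyte genes and 8 of 11 Kupffer cell and macrophage genes. It held for 5 of 26 T cell genes, Skap1 and Lck among them, 4 of 21 NK cell genes, Hcst and Txk among them, and 3 of 22 cytotoxic genes, Ccl5 among them. Ptprc, which encodes the common leukocyte antigen CD45, had -0.047, 0.42, 0.67 and 1.24 on replicates 1 to 4. Coro1a, an actin-binding protein of leukocytes, had 0.34, 0.70, 0.70 and 1.20. These genes were named for their likeness to Thy1, Nkg7 and Cd3d.

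Cd3e, Cd8a and Gzmb had the other pattern, below 0 on replicates 1, 3 and 4 and above 0 on replicate 2. For Cd8a and Gzmb it rests on values near 0. On replicate 2 they were at 0.0012 and 0.014, and Gzmb was at -0.0057 on replicate 3. The other Cd8a probe of the same accession was at -0.33 on replicate 2. It was found for 18.6% of all genes tested and for 43.6% of the 1005 smell, pheromone and taste receptor genes, and for 0 of the pan-leukocyte genes. It was also found for 8 of 26 T cell genes, 5 of 21 NK cell genes, 5 of 22 cytotoxic genes and 1 of 11 Kupffer cell and macrophage genes. Cd6 had it with -0.62, 0.24, -0.92 and -1.03, Cd226 with -0.42, 0.11, -0.50 and -0.62, and Ctsw with -0.47, 0.19, -0.65 and -0.68. The receptor genes as a group had a median ratio of -0.11, with array medians of -0.14, 0.023, -0.15 and -0.17. Of these 1005 genes, 348 were lower and 16 higher at an unadjusted p under 0.05, beside 16.5% and 11.1% of all genes. Whether the signal of Cd3e, Cd8a or Gzmb on these probes is that of the named gene was not tested.

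**Figure D4:**
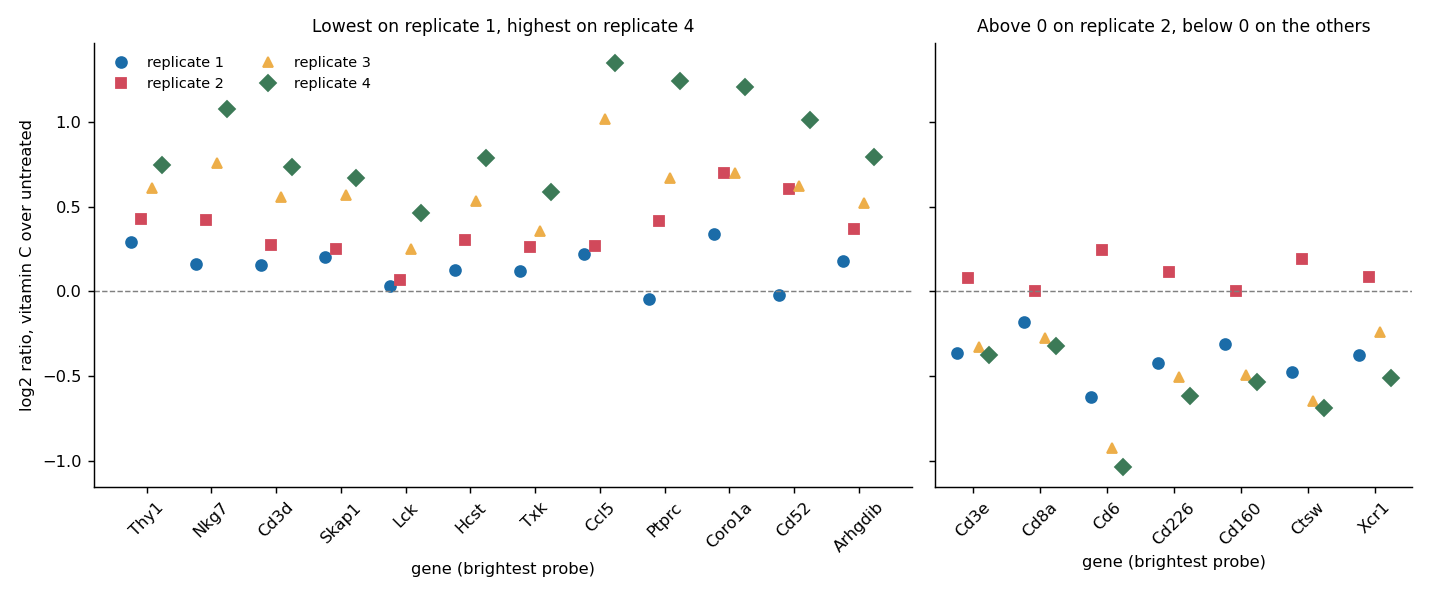
Log2 ratio of vitamin C over untreated (y axis) on the 4 arrays (coloured symbols) for genes chosen, after their values were seen, as examples of each pattern (x axis). On the left, Thy1, Nkg7 and Cd3d lie beside leukocyte genes such as Ptprc and Coro1a with replicate 1 lowest and replicate 4 highest. On the right, Cd3e and Cd8a lie beside Cd6 and Cd226 with only replicate 2 above 0, for Cd8a at 0.0012.

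The count of members called changed when replicate 2 was left out. Without it 5 members passed (Thy1, Nkg7 and Cd3d higher, Cd3e and Cd8a lower; adjusted p from 0.010 to 0.046, limma), together with 8764 of all genes. Without replicate 1, 3 or 4, 0 members passed. The 3 higher members kept ratios of at least 0.33 in each of these fits. At the intensities of the members, 7.38 to 9.33 with Cd3e left aside after its signal had been seen, 9893 genes had a median of -0.010, and 15.0% of them had all 4 arrays above 0.

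**Figure D5:**
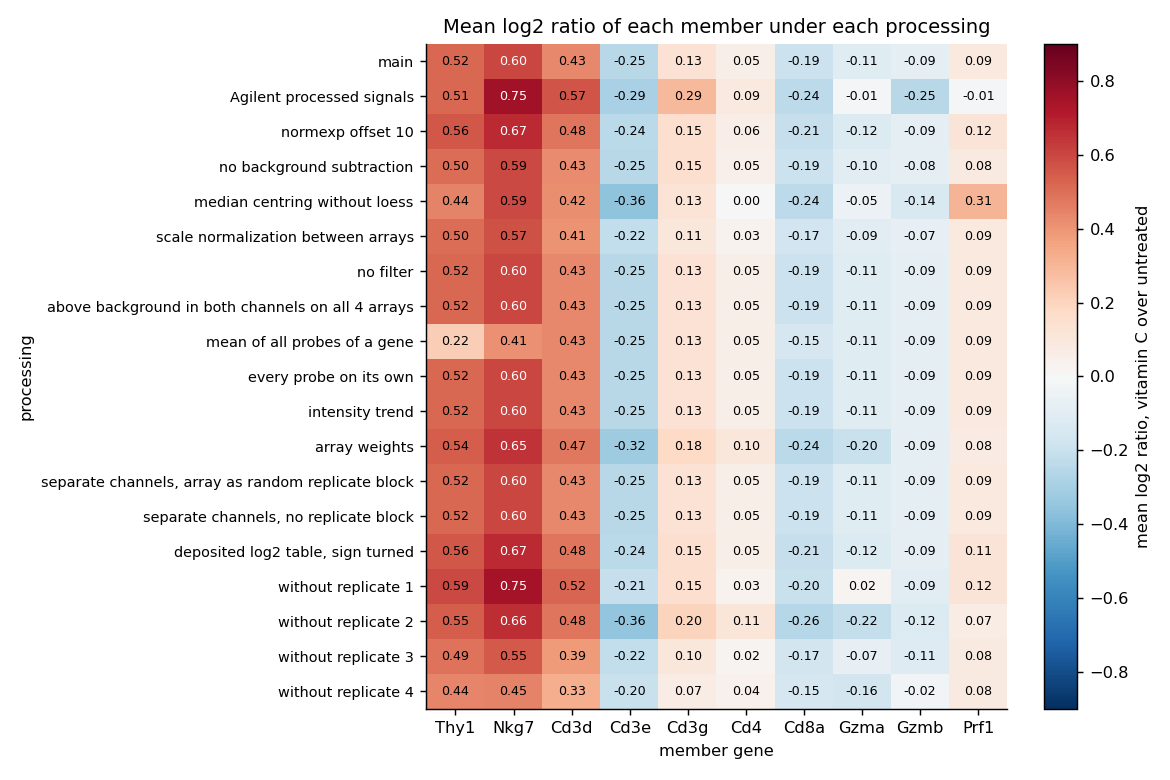
Mean log2 ratio of each member (columns; number and colour) under each way of processing the arrays (rows), the first row being the one reported. Thy1, Nkg7 and Cd3d stay above 0 and Cd3e and Cd8a below 0 in every row, while Gzma is at 0.021 without replicate 1 and Prf1 at -0.012 with Agilent's processed signals. Rows that change only the filter, add an intensity trend or fit the channels separately repeat the reported means. The row of every probe also repeats them, as it shows the brightest probe only. The second Thy1 probe, at -0.078, is not in it.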

How the data were processed

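Per the file headers, the deposited scanner files hold spot intensity values of 2 channels from Agilent Feature Extraction 10.5.1.1. Their log10 ratios, which the authors deposited with them, served only to check the direction. The authors' deposited table of log2 values runs as untreated over treated; the submitters' processing notes name limma, and neither scale nor steps are stated. Ratios were computed in R 4.3.3 with limma 3.58.1 (statmod 1.5.0): normexp (offset 50) on median signals and backgrounds, then loess within arrays fitted without control spots; outlier spots were dropped and the spots of a probe averaged. RefSeq accessions gave 1 symbol for 25097 of 41174 probes. The brightest probe stood for a gene and was tested if it rose well above background in either channel on 3 or more arrays. The 4 ratios were tested against 0 with limma (lmFit, eBayes), Benjamini-Hochberg adjusted over 31077 genes. An exact sign-flip test of 1 gene on 4 arrays cannot go below p = 0.125. The path was tested on simulated arrays whose noise was independent. It was not tested on arrays that correlate across genes as replicates 1, 3 and 4 did here. The members and lists were chosen with earlier results of these data known; named genes were all members, up to 3 per direction of each pathway list by smallest p, and the 2 brightest of each other cell list. The arrays shared 1 slide and 1 scan date. The number of arrays limits the precision. One gene that the naming rule took is not reported here. Alternatives are in the closing section.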

Additional observations from a re-analysis of the deposited data

Results flagged for a closer look

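Of 68 sets of 4 array values examined (member probes, named genes and list medians), 2 had 1 array far from the other 3; chance flags about 1 in 20 such sets. Cd3e had a log2 ratio of 0.081 on replicate 2, while the other arrays lay between -0.37 and -0.33. Spp1, a marker of bile duct cells, had -0.50 on replicate 4, while the others lay between 0.014 and 0.067.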

How the results depend on the processing

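Results were recomputed under 18 alternatives, Klrk1 under 17, as it did not pass the filter of signal above background in both channels on all 4 arrays. The count of genes past the threshold was 0 in the reported fit and became 9632 with median centring without loess, 10856 with array weights, 889 in a fit of separate channels with the array as a random replicate block, and 0 to 8764 with an array left out; with no replicate block it was 0. Under the same 4 settings, 5, 5, 1 and 0 to 5 members passed: Thy1, Nkg7, Cd3d, Cd3e and Prf1 without loess, Thy1, Nkg7, Cd3d, Cd3e and Cd8a with array weights, and Thy1 with the random block. With no replicate block 0 members passed. The weights of replicates 1 to 4 were 1.32, 0.308, 2.12 and 1.16. The cause of these changes was not tested. Leaving out 1 array gave the members a median of 0.050 to 0.089. Genes at an unadjusted p under 0.05 numbered 8603 and ran from 3119 to 14896. Without replicate 1, 3 or 4 no member was lower at that level, against 2 in the reported fit. Thy1 was 0.22 with the mean of its probes, Gzma -0.22 to 0.021 with an array left out (the latter without replicate 1), Prf1 -0.012 with Agilent's processed signals and 0.31 without loess, and Ccl4 0.0050 without loess. Thy1, Nkg7, Cd3d, Cd3e and Cd8a kept their direction in all 18, and so did Cd3g, Cd4 and Gzmb. Not all 18 could change it. Fits that changed only the filter, added an intensity trend or took the channels separately gave the members' reported means again. The fit of every probe did too, as only the brightest probe was read from it. Among the member probes, weak spots over background limit Prf1 and the second Thy1 probe most. The named genes Klrk1, Cst7 and Txk were weaker still, at log2 intensities of 6.55, 6.59 and 7.17.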
